A study of Rattus norvegicus with 6 samples.

Results

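Expression of 10 chemokine and chemokine receptor genes was examined in the sciatic nerve of rats after a crush injury. The genes were the ligands Ccl2, Ccl7, Ccl3, Ccl4, Cxcl1, Cxcl12 and Cx3cl1 and the receptors Ccr2, Cx3cr1 and Cxcr4, chosen by name from the 30957 genes of the mRNA table. All 10 were among the 15195 genes with enough counts to be tested. The nerves came from Sprague-Dawley rats about a month old, in 3 groups of 2 sequenced rats each, namely control and the groups taken at day 4 (D4) and at day 7 (D7) of recovery from the crush. In D4 and D7 rats the middle of the left sciatic nerve was clamped briefly with forceps under chloral hydrate. Control rats are called normal in the sample labels, whereas the methods of the study describe the same operation without the clamp. The study calls the D4 and D7 samples lesional tissue and does not state the length of nerve taken. Their RNA and that of control nerve was depleted of ribosomal RNA before sequencing, with 1 library per rat, lettered a and b in each group.

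The mRNA libraries held 18727255 to 25350886 counted fragments. Markers of Schwann cells, the glia that wrap axons, were abundant, as in a nerve, and the summed expression of 6 of them was 34900 and 25000 FPKM (fragments counted per kilobase of transcript, scaled to the library total) in the control libraries. That sum was 2770 and 3110 FPKM on D4 and 8250 and 5440 FPKM on D7. FPKM carry no correction for library composition, so their differences between groups are not those of the tests below. The 8 monocyte and macrophage markers summed to 196 and 197 FPKM in control, 1120 and 1090 on D4, and 863 and 944 on D7. As the nerve was sequenced in bulk, fewer cells of a type and less RNA per cell cannot be told apart, and likewise more cells and more RNA per cell.

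Chemokines are small secreted proteins that guide leukocytes along a concentration gradient through receptors coupled to G proteins. Ccl2 and Ccl7 draw monocytes through Ccr2, Ccl3 and Ccl4 draw monocytes and T cells, Cxcl1 draws neutrophils through Cxcr2, Cxcl12 acts on Cxcr4, and Cx3cl1 acts on Cx3cr1. After a nerve is crushed, the stump beyond the lesion degenerates, and blood monocytes enter it and clear myelin debris together with Schwann cells and resident macrophages.

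Cxcl12 had the highest expression of the 10 genes in the control nerve, whereas Ccl2 led on D4. In control, Cxcl12 had 28.4 ± 3.49 FPKM (SD, n = 2), and it was followed by Ccl7 with 3.47 ± 0.119 FPKM. Cxcl1, Cx3cr1, Ccl2, Cxcr4 and Cx3cl1 then lay between 0.897 and 1.32 FPKM on average, each overlapping its neighbour in that order. Ccr2 and Ccl3 came next and overlapped each other, and Ccl4 was last with 0.268 ± 0.0200 FPKM.

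On D4, Ccl2 reached 68.4 ± 16.2 FPKM, and its libraries lay above those of the other 9 genes. Cx3cr1 with 14.4 ± 6.51 FPKM and Cxcl12 with 14.2 ± 2.62 FPKM overlapped, as did Ccl7 with 7.68 ± 2.46 FPKM and Cxcr4 with 7.57 ± 2.73 FPKM. Ccr2, Ccl3, Cx3cl1 and Ccl4 were lowest and overlapped from one to the next, with averages from 1.36 to 1.83 FPKM. On D7 the first 4 genes were Ccl2 with 21.9 ± 8.42, Cxcl12 with 15.2 ± 7.65, Cx3cr1 with 10.04 ± 1.41 and Cxcr4 with 9.62 ± 0.345 FPKM, each overlapping the next. Cx3cl1 was last on D7 with 1.27 ± 0.212 FPKM, below the libraries of Cxcl1.

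**Figure D1:**
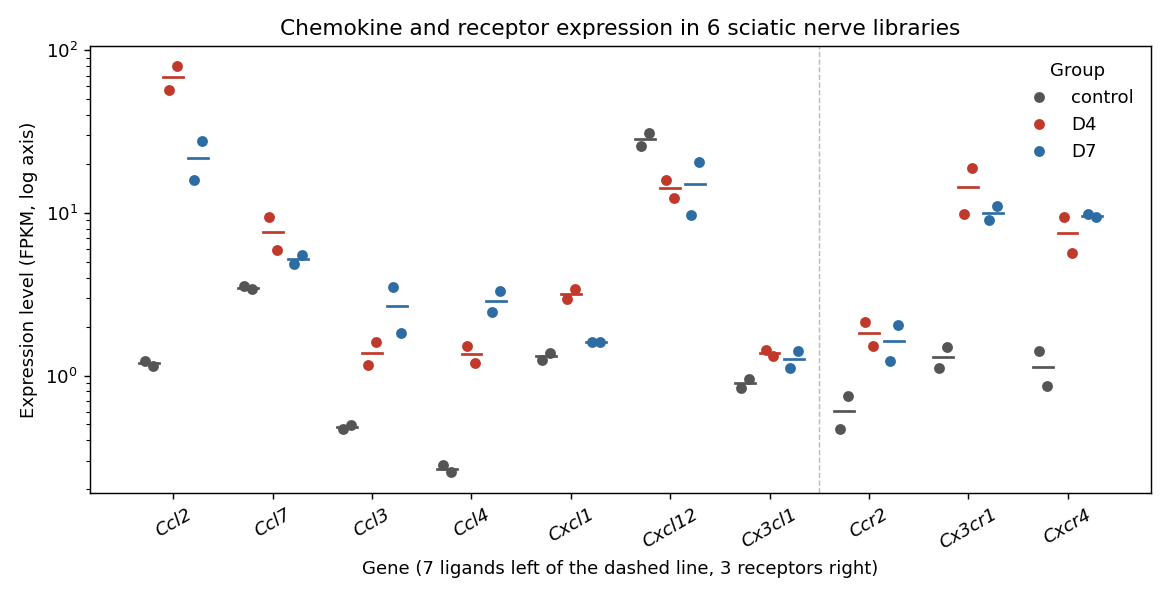
Expression level (FPKM, log axis) of the 7 ligand and 3 receptor genes in each library, with points for single rats and bars for the mean of the 2 rats in control (grey), D4 (red) and D7 (blue). Ccl2 moved from 1.22 and 1.15 FPKM in control to 57.0 and 79.9 FPKM on D4, while Cxcl12 lay lower in all 4 injured libraries than in either control library.

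Promoter sequences are shown for 5 genes, to set the motifs of ligands and receptors side by side. RefSeq entries were found for 7 of the 10 genes and not for Ccl2, Ccl3 and Ccl4. Each sequence is the 250 bases before the start of the gene on assembly GRCr8, read 5′ to 3′ on the strand of the gene. Capitals mark matches, on either strand, to an NF-kappaB-like motif (GGGA, any base, then TTTCC), an AP-1-like motif (TGANTCA) or a TATA motif (TATAAA). Ccl7 is at chr10:67513845-67514094 (plus strand), Cxcl1 at chr14:17479322-17479571 (minus), Cxcl12 at chr4:152060531-152060780 (plus), Cxcr4 at chr13:42634289-42634538 (minus) and Cx3cr1 at chr8:128677067-128677316 (minus).
Ccl7: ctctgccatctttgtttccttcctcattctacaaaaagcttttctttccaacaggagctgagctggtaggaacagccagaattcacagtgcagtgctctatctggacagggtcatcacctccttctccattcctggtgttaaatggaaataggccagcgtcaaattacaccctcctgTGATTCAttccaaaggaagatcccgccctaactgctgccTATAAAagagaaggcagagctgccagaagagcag
Cxcl1: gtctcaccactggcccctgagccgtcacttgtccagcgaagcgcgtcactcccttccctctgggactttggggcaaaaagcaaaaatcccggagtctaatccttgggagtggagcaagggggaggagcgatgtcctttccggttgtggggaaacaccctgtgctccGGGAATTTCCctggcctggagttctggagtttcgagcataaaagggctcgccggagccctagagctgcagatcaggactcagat
Cxcl12: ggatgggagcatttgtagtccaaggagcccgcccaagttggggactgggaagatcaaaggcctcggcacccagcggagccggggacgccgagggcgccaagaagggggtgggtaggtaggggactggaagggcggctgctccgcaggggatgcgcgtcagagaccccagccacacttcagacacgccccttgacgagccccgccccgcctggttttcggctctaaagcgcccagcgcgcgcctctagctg
Cxcr4: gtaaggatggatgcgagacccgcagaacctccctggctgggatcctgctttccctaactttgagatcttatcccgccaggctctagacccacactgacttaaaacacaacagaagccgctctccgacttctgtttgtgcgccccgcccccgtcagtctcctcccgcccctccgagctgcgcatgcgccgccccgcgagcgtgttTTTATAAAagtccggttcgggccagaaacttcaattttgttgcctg
Cx3cr1: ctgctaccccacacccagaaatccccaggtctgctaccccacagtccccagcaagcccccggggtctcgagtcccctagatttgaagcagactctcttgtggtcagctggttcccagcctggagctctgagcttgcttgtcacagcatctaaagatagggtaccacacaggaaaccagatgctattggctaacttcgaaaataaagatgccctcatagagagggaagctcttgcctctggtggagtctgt
The Cxcl1 sequence held GGGAATTTCC at 84 to 75 bases before the start. The NF-kappaB-like motif was found in any promoter entry of 0.331% of the 27457 genes with such entries. The Ccl7 sequence held TGATTCA at 73 to 67 bases, with the AP-1-like motif in 6.99% of these genes, and TATAAA at 34 to 29 bases, with the TATA motif in 14.1%. Cxcr4 had 2 overlapping TATA matches at 46 to 39 bases, and Cx3cl1, whose sequence is not shown, had 1 at 78 to 73 bases. None of the 3 motifs was spelled in these windows of Cxcl12, Cx3cr1 and Ccr2. A match describes the letters and is not evidence of binding.

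Expression after injury was compared with control to find which of these genes differed at each day. A gene was called higher or lower when the adjusted p of edgeR's quasi-likelihood test (Benjamini-Hochberg over all tested genes) was under 0.05 and the fold change was at least 2. On D4, Ccl2, Ccl4, Cx3cr1 and Cxcr4 were higher and Cxcl12 was lower, so that 5 of 10 genes were called, against 21.9% of all tested genes (11.2% higher and 10.7% lower). On D7, Ccl3 joined the same 4 genes that were higher and Cxcl12 was again lower, 6 of 10 against a background of 18.8% (9.83% higher and 9.02% lower). The median log2 fold change of the 10 genes was 1.26 on D4 and 1.65 on D7, beside −0.04 and 0.01 over all tested genes. Both days share the control libraries, so their results are not independent.

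On CPM (counts scaled to library size), corrected with the TMM method for library composition, the injured and control libraries did not overlap for all 10 genes on D4, a state shared by 76.2% of all tested genes. On D7 they did not overlap for 8 genes, against 71.9% of all tested genes, and Cxcl1 and Cx3cl1 were the other 2.

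**Figure D2:**
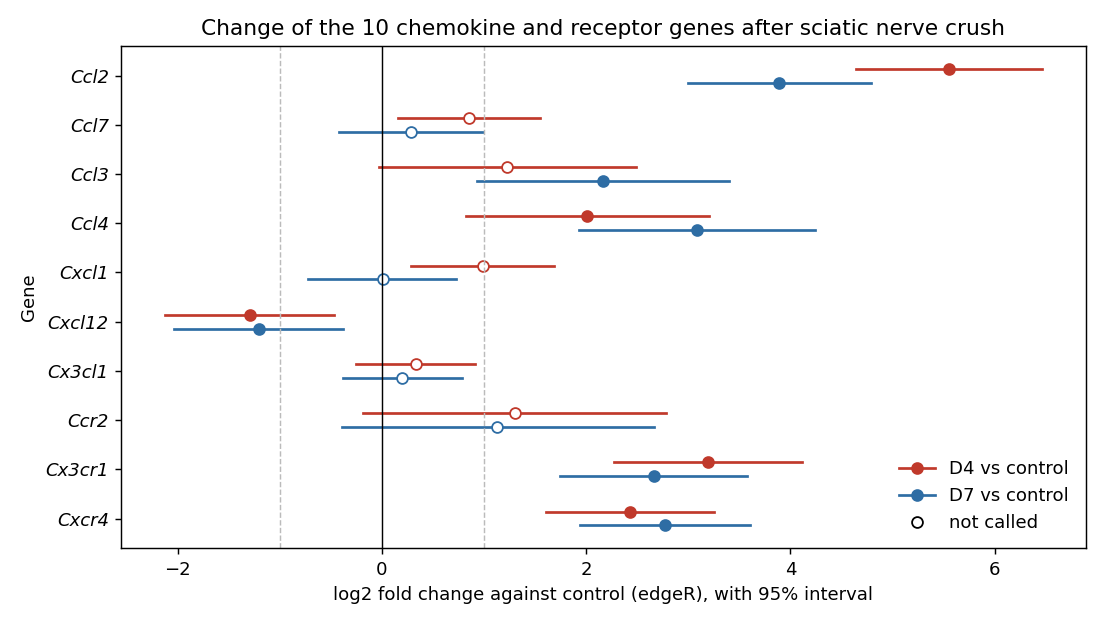
Log2 fold change against control in edgeR's fit for the 10 genes, with 95% intervals as horizontal lines, on D4 (red) and D7 (blue). Filled points were called, open points were not, and dashed lines mark the 2-fold limits. Ccl2 lay farthest right on both days, at 5.55 and 3.89, and Cxcl12 was the gene left of 0, at −1.29 and −1.20.

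Ccl2, the main attractant of blood monocytes, had the largest change of the 10 genes. The gene (ENSRNOG00000007159) lies at chr10:69412017-69413870 on Rnor_6.0, the build of the deposited files. It had 23 and 18 fragments in control (libraries a and b, in this order throughout), 1088 and 1691 on D4, and 266 and 435 at D7. The groups did not overlap, and D7 lay between control and D4. The fold change was 46.9 on D4 (log2 5.55, SE 0.37, 95% interval 4.64 to 6.46, edgeR adjusted p = 0.000227). By D7 it was 14.9 (log2 3.89, SE 0.37, interval 3.0 to 4.79, edgeR adjusted p = 0.000919). Leaving out any single library kept both calls, with log2 values from 5.29 to 5.77 on D4 and from 3.45 to 4.26 on D7.

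Ccl7 (ENSRNOG00000000239), another Ccr2 ligand, starts 9215 bases beyond the end of Ccl2, at chr10:69423086-69424979. It had 68 and 54 fragments in control, 183 and 128 on D4, and 83 and 88 on D7. Its D4 libraries were the highest, but the differences were small beside those of Ccl2. The log2 fold change was 0.85 on D4 (SE 0.28, interval 0.16 to 1.55, edgeR adjusted p = 0.0523) and 0.29 on D7 (SE 0.29, interval −0.42 to 0.99, edgeR adjusted p = 0.465), and neither was called. On D4 it was called without library b of D4 (log2 1.15, edgeR adjusted p = 0.0413). It was also called without the TMM factors (log2 1.14, edgeR adjusted p = 0.0186), a setting that moved the median of all tested genes to 0.25, and relative to the median Ccl7 lay at 0.89 with the factors and at 0.89 without them. Ccl7 was more abundant than Ccl2 in control, where the Ccl2 to Ccl7 FPKM ratio was 0.344 and 0.339. The ratio was 6.05 and 13.4 on D4, and 3.26 and 5.03 on D7.

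Ccl3 (ENSRNOG00000011205) and Ccl4 (ENSRNOG00000011406), the macrophage inflammatory proteins, lie 13464 bases apart at chr10:70869513-70871066 and chr10:70884531-70886355. Both had few fragments. Ccl3 had 8 and 7 in control, 20 and 31 on D4, and 53 and 26 on D7. Its D4 and D7 libraries were all above control, and the 2 libraries of D7 were far apart. Ccl3 was higher on D7, by 4.49-fold (log2 2.17, SE 0.51, interval 0.93 to 3.40, edgeR adjusted p = 0.0196). On D4 its log2 value of 1.23 was not called (SE 0.52, interval −0.03 to 2.49, edgeR adjusted p = 0.100). The D7 call was lost without control a (log2 2.15, edgeR adjusted p = 0.075), control b (2.18, adjusted p = 0.07) or D7 a (1.64, adjusted p = 0.0979), and when a change beyond 2-fold was itself tested with glmTreat (edgeR adjusted p = 0.139).

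Ccl4 had 4 and 3 fragments in control, 22 and 19 on D4, and 31 and 39 at D7. The 3 groups did not overlap, and D7 was highest. It was higher than control by 4.03-fold on D4 (log2 2.01, SE 0.49, interval 0.82 to 3.20, edgeR adjusted p = 0.0185) and by 8.49-fold on D7 (log2 3.09, SE 0.47, interval 1.93 to 4.24, edgeR adjusted p = 0.00451). The D7 call held in each of the 15 alternatives that tested it. The D4 call was lost without control a (log2 2.11, edgeR adjusted p = 0.0686), control b (1.93, adjusted p = 0.075), D4 a (1.82, adjusted p = 0.0972) or D4 b (2.18, adjusted p = 0.0606), and with glmTreat (edgeR adjusted p = 0.132).

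Cxcl1 (ENSRNOG00000002802, chr14:18743685-18745457), an attractant of neutrophils, was higher on D4 by an amount at the fold limit. It had 26 and 24 fragments in control, 63 and 80 on D4, and 30 and 28 at D7. The D4 libraries stood above the other 4, and D7 overlapped control once scaled (1.41 and 1.39 against 1.34 and 1.45 CPM). The D4 fold change was 1.99 (log2 0.99, SE 0.29, interval 0.29 to 1.69, edgeR adjusted p = 0.0339), which passed the p threshold and fell short of 2-fold. It was called with RLE factors (log2 1.01), without the low-count filter (1.0), with at least 10 counts in every library (1.03) and in the fit of these 2 groups alone (1.04). Without TMM factors it was called at 1.28, with the median of all tested genes at 0.25. On D7 the log2 fold change was 0.01 (SE 0.30, interval −0.72 to 0.73, edgeR adjusted p = 0.99).

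Neutrophil markers did not move together. Of the 8 markers, Elane and Camp had no fragment in any library and 3 were tested, of which 1 was higher on D4 and 2 on D7. Csf3r, the receptor for granulocyte colony stimulating factor, was higher at both days (log2 2.58 and 2.36), and Mmp8, the neutrophil collagenase, was higher on D7, with 3 and 1 fragments in control, 264 and 9 on D4, and 387 and 153 on D7. Mpo, myeloperoxidase, had 929 and 854 fragments in control, 195 and 147 on D4, and 1 and 295 on D7, and was not called (log2 −2.89 and −2.77). The summed expression of all 8 was 14.1 and 15.2 FPKM in control, 12.5 and 7.15 on D4, and 13.9 and 13.6 on D7, and in control it was nearly all Mpo (13.0 and 14.3 FPKM).

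Cxcl12 (ENSRNOG00000013589, chr4:149261044-149273891), a ligand made by stromal and endothelial cells that retains and positions leukocytes, was the gene with lower expression after injury. It had 3164 and 3139 fragments in control, 1984 and 1690 on D4, and 1057 and 2088 on D7. All 4 injured libraries were below both controls, and D7 b lay nearest to them. Expression was 2.45-fold lower on D4 (log2 −1.29, SE 0.34, interval −2.12 to −0.47, edgeR adjusted p = 0.0242) and 2.30-fold lower on D7 (log2 −1.20, SE 0.34, interval −2.03 to −0.38, edgeR adjusted p = 0.0352).

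The p-values of Cxcl12 lay near the threshold. With a library left out, and so with fewer samples, the log2 value ran from −1.49 to −1.11 on D4 and from −1.83 to −0.74 on D7. The D4 call was lost without control b (log2 −1.18, edgeR adjusted p = 0.0786), D4 a (−1.49, adjusted p = 0.0742) or D4 b (−1.11, adjusted p = 0.139). The D7 call was lost without control a (log2 −1.31, edgeR adjusted p = 0.0664), control b (−1.09, adjusted p = 0.106), D4 a (−1.2, adjusted p = 0.0626), D4 b (−1.2, adjusted p = 0.0628) or D7 a, where the value itself was −0.74 (adjusted p = 0.0533).

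Neither call was made with glmTreat (edgeR adjusted p = 0.417 on D4 and 0.617 on D7), and the D7 call was lost in the fit of these 2 groups alone (log2 −1.2, adjusted p = 0.0625). Without TMM factors Cxcl12 had log2 values of −1.01 (edgeR adjusted p = 0.0527) and −0.91 (adjusted p = 0.0722), but that setting also moved the median of all tested genes to 0.25 on D4 and 0.31 on D7. Relative to this median, Cxcl12 lay at −1.26 and −1.22 without the factors, beside −1.25 and −1.21 with them.

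Endothelial markers moved with Cxcl12. Of 5 matched markers, 3 were lower on D4 and 5 on D7, and their sum was 128 and 195 FPKM in control, 94.8 and 84.9 on D4, and 51.2 and 85.9 on D7, with the lowest value in D7 a as for Cxcl12. The ratio of Cxcl12 to each of the 5 markers was below control without overlap for 2 of them on D4 and none on D7, was above control for 2 on D7, and overlapped control for the others. To Emcn, an endothelial surface protein, it was 1.04 and 1.38 in control, 1.18 and 1.01 on D4, and 1.32 and 1.74 on D7, so that each injured group overlapped control. To Cdh5, the endothelial cadherin, it was 0.84 and 1.02, then 0.545 and 0.558, then 0.675 and 1.02. The 5 ratios share the FPKM of Cxcl12 and are not independent, and how often such ratios lack overlap over all genes was not computed.

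Fibroblast and mast cell marker sums were also below control after injury and lowest in D7 a. The 4 fibroblast markers summed to 5000 and 5290 FPKM in control, 4330 and 4030 on D4, and 3220 and 3650 on D7, and the 5 mast cell markers to 52.9 and 51.4, then 47.4 and 28, then 19.1 and 38.8 FPKM. Most of the fibroblast sum was Col1a1, with 3689 and 4017 FPKM in control, so the sum mainly follows that gene. Single mast cell markers differed in direction. Kit was higher on D4 (log2 1.09, edgeR adjusted p = 0.0203), where edgeR called none of the 5 lower, and 2 were lower on D7. Of the fibroblast markers, Col1a1 was lower on D7 (log2 −1.05), and Dcn (−0.56 and −0.59), Lum (−0.05 and −0.21) and Pdgfra (0.68 and 0.49) were not called on either day. The ratio of Cxcl12 to each of these 4 markers was below control without overlap on D4, and for 3 of 4 on D7. These ratios, too, share the FPKM of Cxcl12, and no share over all genes was computed. The 4 adipocyte markers summed to 425 and 374 FPKM in control, 127 and 64.8 on D4, and 4.18 and 192 on D7, again lowest in D7 a, and none was called. The part of these cells in the Cxcl12 difference was not tested, and the genes in these and the later ratios were chosen after their values were seen.

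Cx3cl1 (ENSRNOG00000016326, chr19:10644244-10653800), a membrane-bound chemokine that can be shed, was not called on either day. It had 59 and 56 fragments in control, 102 and 105 on D4, and 70 and 83 on D7. Once scaled, D7 overlapped control, and the D4 libraries were slightly above it. The log2 fold change was 0.33 on D4 (SE 0.24, interval −0.25 to 0.91, edgeR adjusted p = 0.298) and 0.20 on D7 (SE 0.24, interval −0.38 to 0.79, edgeR adjusted p = 0.532). Both intervals end below a 2-fold rise.

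Among the receptors, Cx3cr1 (ENSRNOG00000018509, chr8:128740756-128754514), carried by monocytes and tissue macrophages, was higher at both days. It had 33 and 37 fragments in control, 297 and 639 on D4, and 240 and 274 on D7. Every injured library was far above control, and D4 b was highest. The fold change was 9.13 on D4 (log2 3.19, SE 0.38, interval 2.27 to 4.11, edgeR adjusted p = 0.00135) and 6.33 on D7 (log2 2.66, SE 0.38, interval 1.74 to 3.58, edgeR adjusted p = 0.00346). Without D4 b the D4 log2 value was 2.63, and the call was kept.

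Cxcr4 (ENSRNOG00000003866, chr13:45314933-45318878), the Cxcl12 receptor found on many leukocytes and progenitor cells, was also higher at both days. It had 99 and 50 fragments in control, 675 and 444 on D4, and 614 and 546 at D7. The injured libraries were all above control and overlapped each other. The fold change was 5.39 on D4 (log2 2.43, SE 0.34, interval 1.61 to 3.25, edgeR adjusted p = 0.00238) and 6.83 on D7 (log2 2.77, SE 0.34, interval 1.94 to 3.60, edgeR adjusted p = 0.00208). The calls of Cxcr4, Cx3cr1 and Ccl2 were kept at both days in each of the 16 alternatives.

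Ccr2 (ENSRNOG00000059979, chr8:133195288-133197177), the receptor for Ccl2 and Ccl7 on inflammatory monocytes, was not called on either day. It had 3 and 4 fragments in control, 14 and 11 on D4, and 7 and 11 at D7. The scaled injured libraries were above control, but by a few fragments. The log2 fold change was 1.3 on D4 (SE 0.61, interval −0.18 to 2.78, edgeR adjusted p = 0.131) and 1.13 on D7 (SE 0.63, interval −0.39 to 2.66, edgeR adjusted p = 0.200). Its FPKM values imply a counted length of 286 bases, against a gene span of 1890 bases. The counted transcript model is not known, so its FPKM and its place in the order of levels are uncertain.

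The marker list of monocytes and macrophages moved with the receptors. All 8 of these markers were higher on D4 and 7 on D7, with median log2 fold changes of 1.98 and 1.47. Each gene was then set against every one of the 8 markers as a ratio of FPKM. Ccl2 had a higher ratio in both injured groups than in control, with no overlap, for 8 of 8 markers on D4 and on D7. For Cx3cr1 this held for 7 of 8 markers at each day, and for Cxcr4 for 4 of 8 on D4 and 7 of 8 on D7. The ratios of a gene share its FPKM, so they are not independent results. How often such ratios lack overlap over all genes was not computed. For the scaled levels of single genes, 76.2% of all tested genes did not overlap control on D4 and 71.9% on D7.

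Cd68, a lysosomal protein, was the marker with the largest change (log2 2.92 on D4 and 2.85 on D7). It was an exception for both receptors at both days. On D4, Lyz2, Aif1 and Itgam were exceptions for Cxcr4 as well, with ratios that overlapped control. The Cx3cr1 to Cd68 ratio was 0.118 and 0.206 in control, 0.107 and 0.308 on D4, and 0.125 and 0.147 on D7. For Cxcr4 and Cd68 the ratio was 0.151 and 0.119 in control, 0.104 and 0.0913 on D4, and 0.137 and 0.125 at D7. Against Csf1r, the receptor for macrophage colony stimulating factor, whose change was smaller (log2 1.65 and 1.03), Cxcr4 had ratios of 0.0687 and 0.0505 in control, 0.136 and 0.0764 on D4, and 0.239 and 0.176 at D7. For Cxcr4 on D4, the ratio was therefore below control for Cd68 and above it for 4 markers. The Cx3cr1 to Cd68 ratio overlapped control at both days. The part of more macrophages, or of more RNA in each, in these differences was not tested.

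The 8 T and NK cell markers summed to 3.19 and 4.48 FPKM in control, 6.32 and 6.23 on D4, and 15.3 and 13.0 on D7. Of 7 tested, 3 were higher and 1 lower on D4 (DESeq2 called 1 and 1), and 4 were higher on D7. The lower one was Cd3g, a chain of the T cell receptor complex, with 21 and 22 fragments in control, 5 and 5 on D4, and 29 and 29 on D7 (log2 −2.59 on D4, edgeR adjusted p = 0.00468). Klrk1, which was not called, held 3.32 and 3.79 FPKM of the D4 sum. Dendritic cell markers summed to 2.66 and 1.9 FPKM in control, 17.1 and 11 on D4, and 11.7 and 14.6 on D7, with 4 of 5 higher on D4 and 5 on D7. Itgax, a leukocyte integrin, held 12.7 and 7.17 FPKM of the D4 sum and 5.25 and 7.46 FPKM of the D7 sum. B cell markers stayed at or below 0.561 FPKM in sum.

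**Figure D3:**
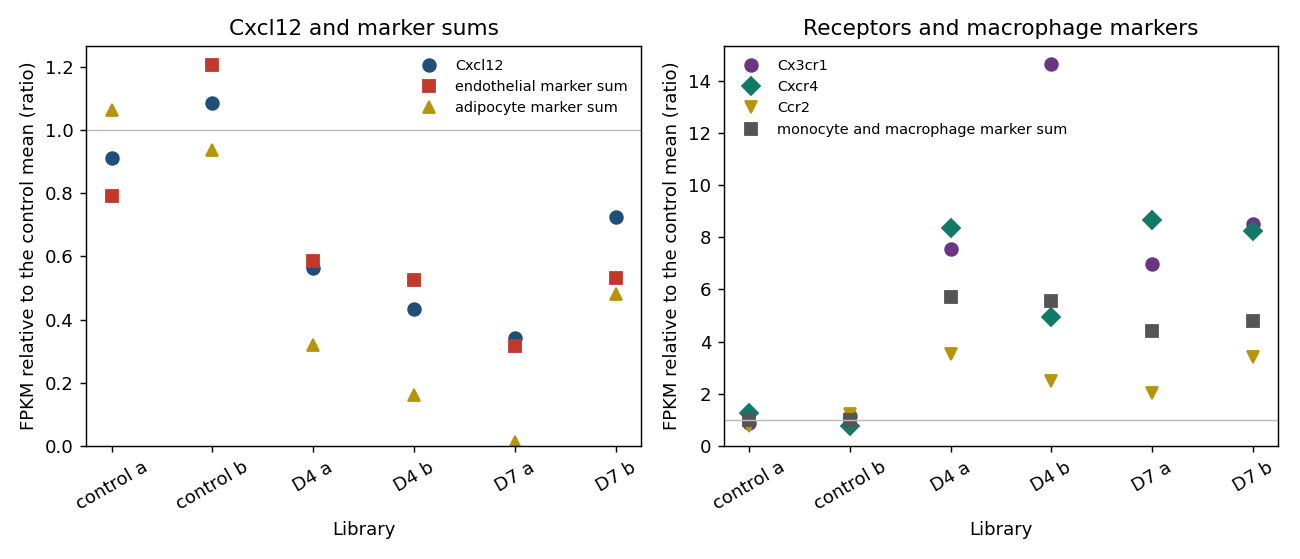
FPKM in each library divided by the mean of the 2 control libraries, for Cxcl12 with the endothelial and adipocyte marker sums (left) and for Cx3cr1, Cxcr4 and Ccr2 with the monocyte and macrophage marker sum (right). The grey line marks 1, and FPKM carry no TMM factors. In D7 a, Cxcl12 (9.74 FPKM) and both marker sums on the left were at their lowest, and Cx3cr1 was highest in D4 b (19.0 FPKM).

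Ligands were set beside their receptors within each library. The FPKM ratio of Cx3cr1 to Cx3cl1 was 1.32 and 1.56 in control, 6.87 and 14.4 on D4, and 8.09 and 7.78 on D7. Cxcr4 stood to Cxcl12 at 0.0546 and 0.0278 in control, 0.593 and 0.458 on D4, and 1.01 and 0.456 on D7. Both receptor to ligand ratios were above control in all 4 injured libraries. For Cxcl12 and Ackr3, its scavenging receptor, the ratio of ligand to receptor was 0.878 and 0.847 in control, 0.367 and 0.306 on D4, and 0.314 and 0.61 on D7.

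D7 was compared with D4 to see which genes differed between the days. Ccl2 was lower on D7 by 3.15-fold (log2 −1.66, SE 0.29, interval −2.35 to −0.96, edgeR adjusted p = 0.0373). It was the 1 gene of 10 called, against 2.18% of all tested genes (1.68% higher and 0.494% lower). Its call was lost without D4 a (log2 −1.88, edgeR adjusted p = 0.181), D4 b (−1.39, adjusted p = 0.219) or D7 a (−1.32, adjusted p = 0.114) and with glmTreat (adjusted p = 0.655). No gene of the 10 was called higher on D7 in edgeR or DESeq2, and 3 had an unadjusted edgeR p under 0.05.

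These 3 genes were Ccl2, Cxcl1 and Ccl4. Cxcl1 had a log2 value of −0.99 (SE 0.28, interval −1.68 to −0.29, edgeR adjusted p = 0.104), and Ccl4 one of 1.07 (SE 0.38, interval 0.14 to 2.01, edgeR adjusted p = 0.158). For Ccl7 the value was −0.57 (interval −1.25 to 0.11) and for Ccl3 it was 0.94 (interval −0.16 to 2.03). The libraries of the 2 days did not overlap for these 5 ligands, as for 60.6% of all tested genes. Cxcl12, Cx3cl1 and the 3 receptors overlapped between the days, with log2 values from −0.53 for Cx3cr1 to 0.34 for Cxcr4.

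Within the pool of chemokine ligands, Ccl2 held a larger share and Cxcl12 a smaller share after injury than in control. The 36 chemokine ligands of the mRNA table that were listed summed to 99.5 and 105 FPKM in control, 255 and 300.1 on D4, and 179 and 245 on D7. Cxcl12 made up 26.1% and 29.4% of this sum in control, 6.27% and 4.1% on D4, and 5.45% and 8.41% on D7. Ccl2 made up 1.23% and 1.09%, then 22.3% and 26.6%, then 8.91% and 11.4%. The 7 ligands together held 33.7% and 36.6% of the sum in control, 35.1% and 35.2% on D4, and 22.0% and 25.4% at D7. The Ccl2 to Cxcl12 ratio was 0.0472 and 0.0372 in control, 3.56 and 6.5 on D4, and 1.63 and 1.35 on D7.

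Among the remaining ligands on D7 were Cxcl14, a chemokine of epithelia and stroma, with 25% and 14.8%, and Pf4, the platelet factor also made by macrophages, with 17.6% and 16.1%. Ccl21, which draws cells into lymph vessels, held 14.6% and 23.9% in control and differed widely between rats after injury, with 1.64% and 9.98% on D4 and 0.97% and 6.82% on D7.

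**Figure D4:**
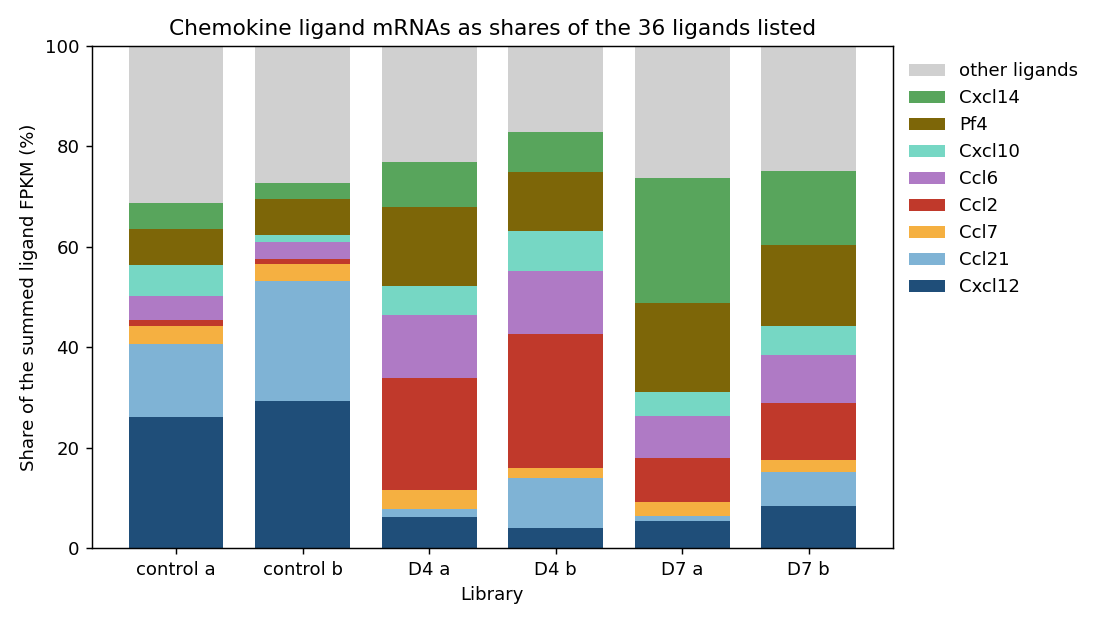
Share of the summed FPKM of 36 chemokine ligands (percent, stacked to 100) in each library, with 8 ligands coloured and the others in grey. Cxcl12 took 26.1% and 29.4% in control, and Ccl2 took 22.3% and 26.6% on D4.

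Other chemokine genes were counted by direction. Of 48 listed ligands and receptors outside the 10, 31 were tested. On D4, 9 were higher and 1 lower, with a median log2 fold change of 0.67, beside 11.2% of all tested genes higher and 10.7% lower. On D7, 10 were higher and 1 lower, with a median of 0.47, beside 9.83% and 9.02%. These backgrounds also hold for the lists that follow. Between the days none was called in edgeR, 7 had an unadjusted p under 0.05, and DESeq2 called 1 higher on D7. With single libraries left out, the number higher ran from 5 (without control b or D4 a) to 9 on D4 and from 6 (without control b) to 10 on D7. The number lower ran from 0 to 2 on D4 and from 0 to 5 on D7, with 5 when D7 b was left out.

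Among 9 tested CC ligands, 2 were higher on D4, where 11.2% of all tested genes were, and 3 on D7, where 9.83% were. Ccl6, a monocyte attractant of rodents, had 145 and 92 fragments in control, 1000 and 1316 on D4, and 402 and 600 on D7, with log2 values of 2.78 (SE 0.27, edgeR adjusted p = 0.000655) and 1.89 (SE 0.27, edgeR adjusted p = 0.00337). Ccl5, which draws T cells, had 4 and 1 fragments in control, 14 and 6 on D4, and 38 and 60 on D7, and was higher on D7 (log2 4.05, SE 0.74, edgeR adjusted p = 0.00852), with values from 3.49 without control b to 5.17 without control a. Ccl9 had 0 and 1 fragments in control, 46 and 100 on D4 and 6 and 46 on D7, a ratio of 102 (95% counting interval 18.1 to 4060) and of 45.1 (7.75 to 1820). Its D4 call was lost without control a, control b or D4 b, and its D7 call without any 1 library other than D7 a (highest edgeR adjusted p = 0.0748 on D4 and 0.16 on D7).

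Of 7 tested CXC and XC ligands, 3 were higher on D4 and 2 on D7. Cxcl14 had 192 and 98 fragments in control, 842 and 987 on D4, and 1444 and 1094 on D7 (log2 2.16 and 2.94, SE 0.25 for both, edgeR adjusted p = 0.00121 and 0.000701). Pf4 had 51 and 46 fragments in control, 290 and 286 on D4, and 200 and 235 on D7 (log2 2.06 and 1.96, SE 0.20 for both, edgeR adjusted p = 0.000654 and 0.00114). Cxcl10, induced by interferon, was higher on D4 (log2 2.06, SE 0.65, edgeR adjusted p = 0.0434), but its controls had 155 and 28 fragments, its log2 value ran from 1.36 without control b to 3.6 without control a, and the call was lost without control b, D4 a, D4 b or D7 b (highest edgeR adjusted p = 0.184).

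Of 11 other tested chemokine receptors, 4 were higher and 1 lower on D4, and 5 were higher and 1 lower on D7. Cxcr3, a receptor of activated T cells, had 3 and 4 fragments in control, 24 and 25 on D4, and 58 and 44 on D7 (log2 2.25 and 3.61, SE 0.46 and 0.44, edgeR adjusted p = 0.0101 and 0.00211). Its D4 call was lost without control a or D4 a (highest edgeR adjusted p = 0.0531). Xcr1, a dendritic cell receptor, had 2 and 1 fragments in control and 37 and 22 on D7, a ratio of 17.1 (counting interval 5.56 to 85.1), with a call lost without control b or D7 a (edgeR adjusted p up to 0.0563). Ccr6 had 1 fragment in each control and 11 and 16 on D7, a ratio of 11.7 (2.94 to 102), lost without control a, control b or D7 b (edgeR adjusted p up to 0.0896). Ccr3, the eotaxin receptor, had no fragment in control and 20 and 10 for D7, which is at least 8.67-fold higher when control is set to 3 counts over the group. That call was lost without any 1 control or D7 library (edgeR adjusted p up to 0.145).

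The 2 receptors that were lower were named after their values were seen. Cxcr2, the receptor of Cxcl1, was lower on D4, with 39 and 26 fragments in control, 16 and 14 on D4, and 24 and 16 on D7 (log2 −1.60, SE 0.40, edgeR adjusted p = 0.0213). Cxcr5, a chemokine receptor found on B cells, was lower on D7, with 66 and 23 fragments in control and 15 and 9 on D7 (log2 −2.05, SE 0.55, edgeR adjusted p = 0.0297). No receptor or ligand outside the 10 was lower on D4 without control a, D4 a or D4 b or with glmTreat, or lower on D7 without D4 a, D4 b or D7 a, in the fit of 2 groups or with glmTreat. Of the 4 atypical receptors tested, which bind chemokines without driving migration, none was called by edgeR on either day. Of these, 0 on D4 and 2 on D7 had an unadjusted p under 0.05, and DESeq2 called 1 lower on D7.

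Genes that act below or beside the receptors were listed in 3 groups. Of 23 signalling genes, 10 were higher and 1 lower on D4, beside 11.2% and 10.7% of all tested genes, and 8 were higher and 1 lower on D7, beside 9.83% and 9.02%. Vav1 (log2 2.87 on D4 and 2.69 on D7), the kinase Fgr (2.61 and 1.98) and Pik3r5 (2.67 and 2.30), a subunit of the phosphoinositide kinase that receptors activate, were among the largest changes. Elmo1, a partner of Dock proteins in cell migration, was the gene that was lower at both days (−1.22 and −1.68). Of 14 adhesion genes, 7 were higher and 1, Vcam1 (−1.44), lower on D4, and 7 were higher on D7. The leukocyte integrins Itgb2 (3.15 and 2.91), Itgax (3.14 and 2.49), Itgal (2.88 and 2.49) and Itgam (2.24 and 1.42) led this group, and Itgam and Itgax also belong to the marker lists above.

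Of 6 tested proteases that cleave or shed chemokines, 2 were higher on D4 and 3 on D7, beside 11.2% and 9.83% of all tested genes. Adam17, which sheds Cx3cl1 from the cell surface, had 2411 and 2477 fragments in control, 3869 and 4110 on D4, and 8197 and 6174 on D7. Its log2 fold change was 0.18 on D4 (SE 0.15, edgeR adjusted p = 0.348) and 1.34 on D7 (SE 0.15, edgeR adjusted p = 0.00152). Mmp12, the macrophage elastase, had 0 and 1 fragments in control, 343 and 51 on D4, and 149 and 90 on D7, ratios of 276 (counting interval 49.2 to 10900) and 207 (36.8 to 8220). Mmp9 had 4 and 0 fragments in control, 76 and 134 on D4, and 23 and 82 on D7 (log2 5.13 and 4.47, SE 1.06 on D4, edgeR adjusted p = 0.0104 and 0.0215). The Mmp12 calls were lost without control a, and on D7 also without control b, and the Mmp9 calls without D4 b on D4 and without control b or D7 b on D7 (highest edgeR adjusted p from 0.0523 to 0.082). On D4 the log2 value ran from 5.8 without D4 a to 10.48 without control b for Mmp12, and from 4.26 without control b to 9.47 without control a for Mmp9.

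**Figure D5:**
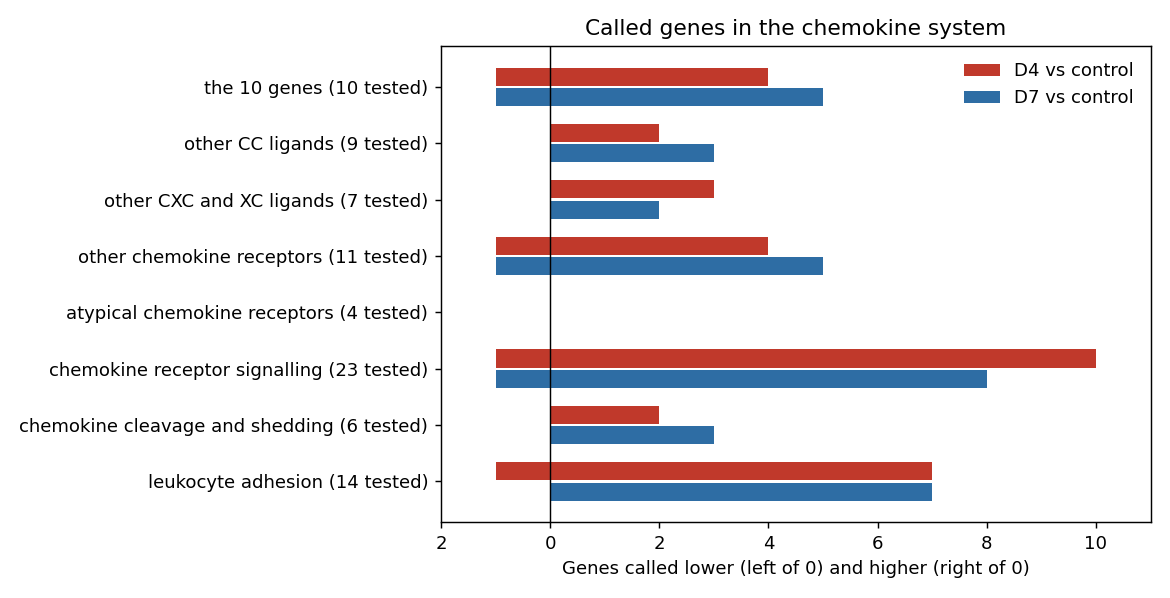
Number of genes called higher (right of 0) and lower (left of 0) against control on D4 (red) and D7 (blue), for the 10 genes and 7 lists of related genes, with the number tested in brackets. The signalling list has the most calls, 10 higher on D4 among 23 tested, and no atypical receptor was called by edgeR.

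The mRNAs with the most similar course were found among 13326 tested genes with a mean of at least 1 FPKM, by the root mean square difference over the 6 libraries in log2 CPM, each gene set to a control mean of 0. Ccl2 had no gene within 0.25, and its nearest were Fam132b (0.324) and Dusp10 (0.359), a MAP kinase phosphatase. Fam132b had 1 and 0 fragments in control, 89 and 126 on D4, and 31 and 28 on D7. Its distance therefore depends on the prior count of 2 that was added before the log. The distances of Ccl3, Ccl4 and Ccr2, which had few fragments, depend on it as well. Dusp10 had 214 and 166 fragments in control, 7533 and 9237 on D4, and 2417 and 2707 on D7. For Cx3cr1, 3 genes lay within 0.25, led by Crabp2 (0.206) and Fanca (0.229), and for Cxcr4, 1 gene did, Pltp (0.178), followed by Atp1b1 (0.252). For Ccl4, 1 gene lay within 0.25, LOC100361139 (0.218), followed by Tekt1 (0.267).

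Of the other genes, Ccl3 was most like Lgi3 (0.129) and Dos (0.186), with 11 genes within 0.25, and Cxcl12 was most like Rn60_5_0791.1 (0.0961) and Slc43a1 (0.118), with 57. Cx3cl1 had 2578 genes within 0.25, led by Rrs1 (0.0384) and Arf4 (0.0464), and Ccl7 had 310, led by Ctsl (0.0599), the lysosomal cathepsin L, and Slc6a6 (0.117). Cxcl1 had 145, led by LOC685431 (0.107) and Rn60_X_0663.2 (0.114), and Ccr2 had 110, led by Tmem200b (0.104) and RGD1560017 (0.142).

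The study also counted lncRNAs, and those within 10 kb of the 10 genes were examined because it took that distance for cis targets. There were 3, of which 1 had enough counts to be tested. NONRATT029085.2, of 1181 bases at chr8:128738685-128739865, lies 890 bases from Cx3cr1, below its lower coordinate. Cx3cr1 is on the minus strand of GRCr8, so with the same strand on Rnor_6.0 this is the side of its 3′ end. Whether the lncRNA is a transcript separate from Cx3cr1 was not tested. It had 34 and 28 fragments in control, 231 and 417 on D4, and 182 and 237 on D7. These counts were 65.3% to 103% of those of Cx3cr1 in the same libraries, and D4 b was again highest. The lncRNA was higher on D4 (log2 3.20, SE 0.33, edgeR adjusted p = 0.00634) and on D7 (log2 2.66, SE 0.33, edgeR adjusted p = 0.0143), against 5.19% and 3.0% of all tested lncRNAs called higher. The D7 call was lost without control a (edgeR adjusted p = 0.071), control b (adjusted p = 0.0773), D7 a (adjusted p = 0.0558) or D7 b (adjusted p = 0.0649).

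The other 2 lncRNAs were too sparse to test. ENSRNOT00000076677, which overlaps Ccl3, had 1 and 0 fragments in control, 7 and 5 on D4, and 4 and 9 on D7. NONRATT014458.2, 1317 bases from Cx3cl1, had at most 4 fragments in a library. Whether counting used the strand is not stated, so fragments of Ccl3 and of the lncRNA that overlaps it cannot be told apart.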

How the data were processed

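Sciatic nerve RNA of 6 rats (2 each in control, D4 and D7) had been sequenced. Per the labels and the study's methods, the authors removed ribosomal reads, mapped to Rnor_6.0 with HISAT2 2.0.4 and assembled and counted with StringTie 1.3.0. The deposited counts are whole, not normalized, fragment counts per gene or lncRNA transcript. The deposited FPKM values, made by the authors, follow these counts and the total of each library. They were used here to compare genes within libraries, and levels and marker sums were also set side by side across groups. They carry no TMM factors, which were 0.863 and 0.885 in control and 1.06 to 1.08 in the injured libraries. FPKM therefore place injured libraries higher against control than the fit does. Lum, for example, had 255.5 FPKM in control and 301.7 on D4, with a log2 fold change of −0.05. Treatment of fragments shared by similar genes is not given in the sources used here.

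Counts were filtered with filterByExpr, scaled with TMM and fitted in 1 model of 6 libraries with edgeR 4.0.16 (quasi-likelihood test, R 4.3.3), with Benjamini-Hochberg adjustment over 15195 mRNAs or 14077 lncRNAs. Calls needed an adjusted p below 0.05 together with a 2-fold change. The standard error is the log2 fold change divided by the root of F. Counting intervals and floors (3 counts) cover counting error only. DESeq2 1.42.0, RLE factors, glmTreat, other filters and each library left out were alternatives, and the fits were tested on simulated data.

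The 10 genes and the lists were chosen with earlier results of these data known. From each list up to 4 called genes with the largest change were named (some that the rule names are not reported here), and for each of the 10 the 2 genes with the nearest course. Ackr1 and Pecam1 were not matched. With 2 rats a group, no library could be judged an outlier. Library letters mark different rats and do not pair them: deviations of same-letter mRNA libraries correlated at 0.0103 (control and D4), 0.195 (control and D7) and −0.134 (D4 and D7). Python 3.11.15, pandas 2.3.3, numpy 2.4.6, scipy 1.17.1 and matplotlib 3.10.9 were also used.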

Additional observations from a re-analysis of the deposited data

Results flagged for a closer look

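Differences between the injured days were looked at again because D4 and D7 differed in the direct test. For Ccl2, D7 against D4 gave a log2 fold change of −1.66, with 1088 and 1691 fragments on D4 and 266 and 435 on D7. For Adam17, D7 against D4 gave 1.15 (SE 0.15, edgeR adjusted p = 0.0215), with no overlap between the D4 and D7 libraries, and the call was lost without D4 a (log2 1.18, edgeR adjusted p = 0.19), D4 b (1.12, adjusted p = 0.183) or D7 a (0.97, adjusted p = 0.0757) and with glmTreat (adjusted p = 1.0).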

How the results depend on the processing

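Of the single values of the 10 genes under the alternatives, 426 kept direction and side of the threshold, 26 lost a call, 8 gained one and 9 changed sign. Values not called in the main fit could not lose a call. The lost calls were those of Ccl2 between days (4 of 16 alternatives), Ccl3 on D7 (4 of 15) and Ccl4 on D4 (5 of 15). Cxcl12 lost its call in 5 of 16 alternatives on D4 and in 8 of 16 on D7. None of the sign changes touched a called value: Cxcl1 on D7 was −0.01 with DESeq2 and with RLE factors and −0.05 to 0.06 with a library left out, and between days, with a library left out, Cxcl12 ran from −0.54 to 0.51, Cx3cl1 from −0.3 to 0.02, Ccr2 from −0.57 to 0.14 and Cx3cr1 from −0.93 to 0.03. Of the 10 genes, the number lower on D4 was 0 without TMM factors and with glmTreat, and 0 to 1 with a library left out. The number lower on D7 was 0 in these settings and in the fit of 2 groups, again 0 to 1 with a library left out, and the number lower between days was 0 with glmTreat and 0 to 1. The number higher on D7 was 3 with at least 10 counts in every library, since Ccl3 and Ccl4 were then not tested, and 4 to 5 with a library left out. Of the other chemokine genes, 5 were higher on D4 with at least 10 counts and 3 with glmTreat (5 to 9 with a library left out), and 3 and 6 on D7 (6 to 10). The number lower was 0 with glmTreat on both days, 2 on D7 with DESeq2 or RLE factors and 0 in the fit of 2 groups, with 0 to 2 on D4 and 0 to 5 on D7 when a library was left out. Between days DESeq2 called 1 higher, and leaving out a library gave 0 to 1 higher and 0 to 3 lower. The lncRNA near Cx3cr1 gave 0 to 1 on D7. The cause of these changes was not tested. With the library letter as a replicate block, the counts for the 10 genes were the main ones (4 and 5 higher, 1 and 1 lower), and the other chemokine genes gave 7 higher on D4 and 9 on D7. The calls of Cxcl10 (edgeR adjusted p = 0.0689) and Ccr6 (0.0549) on D4 were lost under the block, and with the D4 letters exchanged, added after seeing the data, the counts were 9 and 7. Genes with few fragments, such as Ccr2, Ccl3 and Ccl4, carry the widest intervals, and 2 rats a group limit every test.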
